A study of Mus musculus with 6 samples.

Results

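The FoxO transcription factors and the main enzymes that remove reactive oxygen species were followed in LSK cells, the lineage-negative, c-KIT and SCA1 positive fraction of mouse marrow in which blood stem cells and multipotent progenitors lie. The group was set by gene name and held 10 genes: Foxo1, Foxo3, Foxo4, Sod1, Sod2, Cat, Gpx1, Gpx4, Prdx1 and Txn1. All 10 were found among the 55487 genes counted, and all 10 passed the filter on low counts that left 15691 genes for testing. The study compared 3 wild-type mice (WT) with 3 Brm-/- mice (BrmKO), with 3 libraries per genotype, on a strain background written C56Bl/6 in the labels. The deletion was not described further in the labels, nor was the age or sex of the mice or whether the genotypes were littermates. A treatment was not named for either group.

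FoxO factors are forkhead proteins that growth-factor signals keep out of the nucleus, through phosphorylation by AKT. In the nucleus they switch on genes for cell cycle arrest, cell death and defence against oxidants, and mice that lack them in blood cells are known for stem cells that accumulate reactive oxygen species and lose their quiescence. The enzymes act in sequence: superoxide dismutases turn superoxide into hydrogen peroxide, and catalase, glutathione peroxidases and peroxiredoxins then break the peroxide down, with thioredoxin returning electrons to the peroxiredoxins. The gene deleted in BrmKO, Smarca2, codes for BRM, a motor subunit of SWI/SNF chromatin remodellers. Whether its loss changes the mRNA of this defence system is the question the comparison addresses, within the limits of 3 libraries per genotype.

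None of the 10 genes passed the test between the genotypes. Each overlapped between the 3 WT and the 3 BrmKO libraries, and each had an adjusted p of 0.999 (edgeR quasi-likelihood test, Benjamini-Hochberg over 15691 genes). Over all genes, 0.14% passed at an adjusted p of 0.05 and 5.85% had an unadjusted p under 0.05; of these 10, 0 passed and 0 were under 0.05 unadjusted. The groups were apart in 11.1% of all genes and in 0 of the 10. The log2 fold changes of BrmKO over WT ran from -0.09 (Gpx4) to 0.13 (Sod1), with 7 of 10 above 0 and a median of 0.01, where 48.8% of all genes lay above 0 with a median of -0.005.

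Read totals in genes ranged from 28.01 to 36.46 M per library. Smarca2 had 4270 to 6932 reads in WT and 761 to 958 in BrmKO (log2 fold change -2.72 ± 0.13, adjusted p = 2.97e-05, edgeR; a ± after a log2 fold change is its SE throughout), so the libraries matched their labels. The gate's own markers were present in all 6 libraries, Kit at 849 to 1031 CPM (the usual per-library share of reads in genes, after TMM scaling for library composition) and Ly6a, which encodes SCA1, at 18.7 to 35.7 CPM. Markers of other cells were present too. The 10 T and NK cell genes summed to 231 to 264 CPM over the 6 libraries, nearly all of it Nkg7 at 225 to 258, with Cd4 at 3.78 to 5.45 and no read of Cd3e. Among neutrophil and monocyte genes, Elane stood at 355 to 521 and Lyz2 at 269 to 425 CPM, and Ly6g at no more than 0.116. Summed markers of megakaryocytes (11 genes) were at 738 to 1025 CPM in WT and 484 to 704 in BrmKO. Those of dendritic cells (10 genes) were at 738 to 1152 and 1165 to 1500 CPM. Flt3, which was listed as a progenitor marker too, supplied 467 to 550 CPM of each dendritic sum. Of the 10 dendritic genes, 8 had a log2 fold change of BrmKO over WT above 0 and 2 below, with a median of 1.015. Over all genes, 48.8% lay above 0. H2-Ab1 stood at 75.5 to 218 CPM in WT and 223 to 344 in BrmKO, and Cd74 at 65.5 to 194 and 195 to 327. The dendritic markers Itgax and Siglech stood at no more than 8.47 and 1.11 CPM. The part of these cells in the results was not tested. The share of reads that fell in no annotated gene was 8.41% in WT replicate 3 and 9.29% in BrmKO replicate 3, where the remaining libraries had 5.79% to 6.61%. Several of the 10 genes moved with these libraries, as described further on. In bulk samples such as these, fewer cells of a kind and less RNA per cell cannot be told apart.

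**Figure D1:**
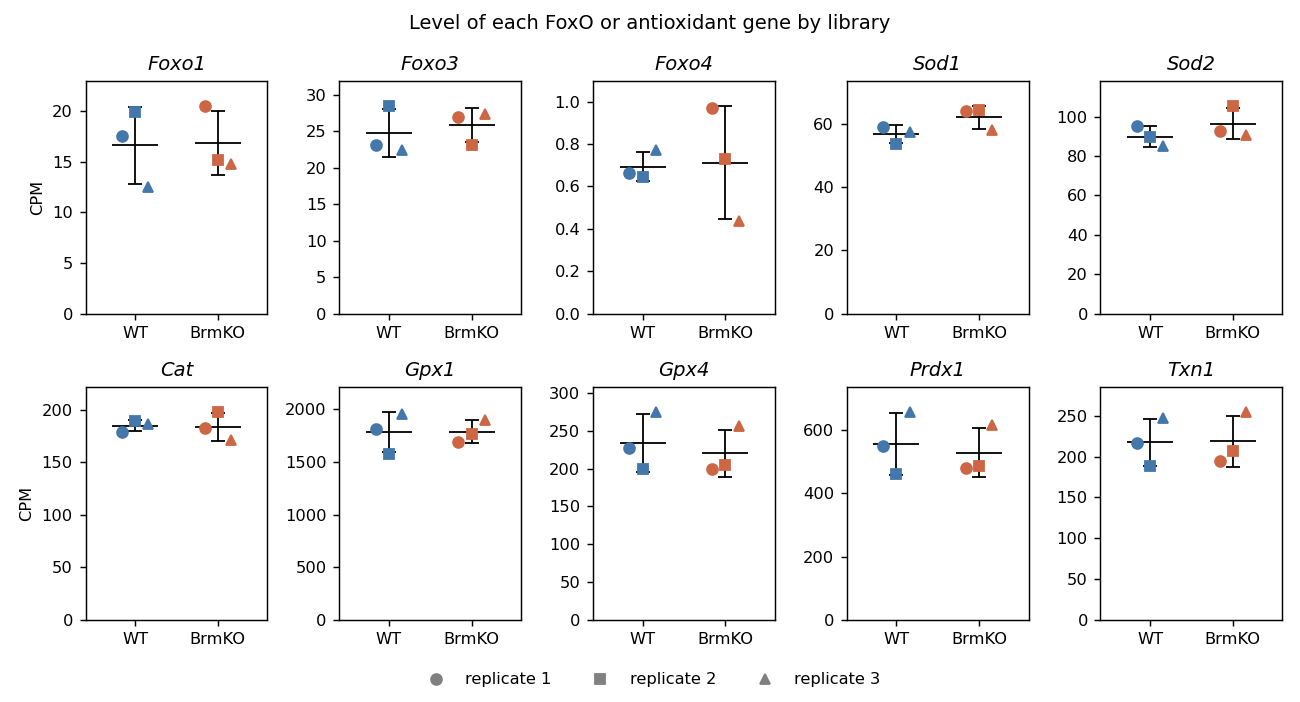
Level of each gene in CPM (y axis, from 0) in the 3 WT and 3 BrmKO libraries, with the marker shape giving the replicate number and the black bar and whiskers the mean ± SD. WT and BrmKO overlapped for all 10 genes, and the triangles (replicate 3) were highest in both genotypes for Gpx1, Gpx4, Prdx1 and Txn1.

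Foxo3 (ENSMUSG00000048756, chromosome 10, 42181841 to 42276755, minus strand, GRCm38) is the FoxO factor most often tied to stem cell maintenance, and it was the most abundant of the 3. It stood at 23.2, 28.5 and 22.5 CPM in WT replicates 1 to 3 and at 27.0, 23.2 and 27.4 CPM in BrmKO replicates 1 to 3. The 3 BrmKO libraries lay inside the WT range, with WT replicate 2 the highest of the 6. The log2 fold change was 0.06 ± 0.14, with a 95% interval of 0.844-fold to 1.3-fold.

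Foxo1 (ENSMUSG00000044167, chromosome 3, 52268336 to 52353221, plus strand), which also drives early lymphoid genes, stood at 17.6, 19.9 and 12.5 CPM in WT and at 20.5, 15.2 and 14.8 CPM in BrmKO. It varied more within a genotype than most of the group, with a coefficient of variation of 22.8% in WT and 19% in BrmKO, and replicate 3 was the lowest library of each genotype. The means were 16.6 ± 3.79 and 16.8 ± 3.19 CPM (SD, n = 3), a log2 fold change of 0.02 ± 0.21 with an interval of 0.735-fold to 1.39-fold.

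Foxo4 (ENSMUSG00000042903, chromosome X, 101254528 to 101260873, plus strand), the X-linked member, was close to the detection limit. It had 24, 21 and 22 reads in WT and 29, 21 and 15 in BrmKO, or 0.646 to 0.774 and 0.436 to 0.970 CPM. BrmKO held both the highest and the lowest of the 6 libraries. At this depth the interval, 0.479-fold to 2.19-fold, covers a halving and a doubling. The paralogue Foxo6 had 15 reads over all 6 libraries and was not tested.

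Per kilobase of merged exons, Foxo3 exceeded Foxo1 in every library. Foxo3 over Foxo1 gave 1.51, 1.64 and 2.07 in the WT libraries and 1.5, 1.75 and 2.12 in those of BrmKO, so the ratio was highest in replicate 3 of each genotype. The genes' levels were 3.27 ± 0.433 RPKM (CPM divided by the length in kilobases) for Foxo3, 1.92 ± 0.437 for Foxo1 and 0.199 ± 0.0199 for Foxo4 in WT (SD, n = 3). Gm38034, on the same strand, and Gm20402, on the opposite strand, overlap the span of Foxo1 by 2069 and 1001 bases. Reads in any exon shared there may be missing from the Foxo1 count, and the ratio carries that uncertainty.

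Sod1 (ENSMUSG00000022982, chromosome 16, 90220754 to 90226329, plus strand), the copper and zinc dismutase of the cytosol, had the smallest p of the 10 genes. It stood at 59.2, 53.8 and 57.4 CPM in WT and at 64.1, 64.3 and 58.0 CPM in BrmKO. Replicates 1 and 2 of BrmKO lay above all WT libraries, while BrmKO replicate 3 lay inside the WT range. Its log2 fold change was 0.13 ± 0.09 (unadjusted p = 0.196, edgeR quasi-likelihood test), an interval of 0.946-fold to 1.26-fold. Scaf4 runs on the opposite strand and shares 650 bases with Sod1; no source used here states the strand setting of the counting, and reads in that stretch may be missing from both. Its pseudogene Gm8566, 97.8% identical, had 1 to 3 reads per library.

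Sod2 (ENSMUSG00000006818, chromosome 17, 13006846 to 13040063, plus strand), the manganese dismutase of mitochondria and a FoxO3 target, stood at 95.3, 89.4 and 85.0 CPM in WT and at 92.9, 105 and 90.8 CPM in BrmKO. Only BrmKO replicate 2 exceeded the WT range. The log2 fold change was 0.10 ± 0.09, with an interval of 0.926-fold to 1.24-fold. A long annotated Sod2 transcript shares 3056 bases with a transcript of Rps6ka2 at 98.3% identity, so reads there may be absent from the Sod2 count. Partners of the dismutases were looked at too, 5 of 6 listed being tested, with 1 above 0, a median of -0.02 and 0 at an unadjusted p under 0.05. Slc31a1, the copper importer, and Atox1, a copper chaperone, had log2 fold changes of -0.11 ± 0.09 and -0.06 ± 0.14. Ccs, which loads copper into SOD1, had means of 42.2 ± 0.723 and 41.5 ± 4.54 CPM (SD, n = 3). Sod3, the extracellular dismutase, had 2 reads in all.

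Cat (ENSMUSG00000027187, chromosome 2, 103453849 to 103485160, minus strand) encodes catalase, the peroxide-degrading enzyme of peroxisomes, and had the smallest coefficient of variation of the group in WT, 2.8%. It stood at 179, 189 and 187 CPM in WT and at 183, 198 and 171 CPM in BrmKO. The BrmKO libraries enclosed the WT ones. Its log2 fold change was -0.01 ± 0.09, and the interval, 0.869-fold to 1.14-fold, was the narrowest of the 10.

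Gpx1 (ENSMUSG00000063856, chromosome 9, 108338903 to 108340343, plus strand), the cytosolic glutathione peroxidase, was the most abundant. It had 50537 to 65617 reads per library and made up 55.9% to 57.5% of all reads of the 10 genes. Its levels were 1812, 1578 and 1956 CPM in WT and 1690, 1768 and 1902 CPM in BrmKO. The means, 1782 ± 191 and 1786 ± 107 CPM (SD, n = 3), differed by a log2 fold change of 0.004 ± 0.10, with an interval of 0.853-fold to 1.18-fold. Per kilobase of merged exons Gpx1 ranked 4 among 15675 tested genes in WT, at 1237 ± 132 RPKM.

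Gpx4 (ENSMUSG00000075706, chromosome 10, 80047166 to 80056439, plus strand) reduces lipid peroxides in membranes and is the enzyme that holds back ferroptosis. It stood at 227, 199 and 275 CPM in WT and at 199, 205 and 256 CPM in BrmKO. Replicate 3 was the highest in each genotype and the other 4 libraries lay within 199 to 227 CPM. The log2 fold change was -0.09 ± 0.14, an interval of 0.759-fold to 1.17-fold.

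Gpx1 and Gpx4 are selenoproteins, whose active-site selenocysteine is written as TGA, a codon that elsewhere ends translation. The sense strand around that codon is shown for both, with TGA in capitals, because the same stretch in the pseudogene Gpx4-ps2 shows how little separates its reads from those of Gpx4. The codon lies at 108339451 to 108339453 on chromosome 9 in Gpx1 and at 80054737 to 80054739 on chromosome 10 in Gpx4 (GENCODE M21, GRCm38).
Gpx1: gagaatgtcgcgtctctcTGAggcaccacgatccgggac
Gpx4: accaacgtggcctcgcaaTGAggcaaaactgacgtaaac
Gpx4-ps2: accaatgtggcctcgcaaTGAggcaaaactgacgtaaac
Counted from 1 at the 5′ end of the printed Gpx4 stretch, the pseudogene differs by 1 substitution, C6T. Over its aligned length Gpx4-ps2 is 99.7% identical to Gpx4, and it held 208, 175 and 202 reads in WT and 193, 158 and 231 in BrmKO. Reads that aligned to more than 1 place stand in a row of their own in the deposited counts, 4.38% to 5.27% of reads per library, and belong to no gene's count. How many of them came from Gpx4 is not known, so its level is uncertain by that number. Adding the reads of its pseudogenes to Gpx4 left its log2 fold change at -0.08.

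Prdx1 (ENSMUSG00000028691, chromosome 4, 116685544 to 116700822, plus strand), a cytosolic peroxiredoxin, ranked next to Gpx1 in reads. It stood at 550, 461 and 657 CPM in WT and at 479, 487 and 617 CPM in BrmKO. Replicate 3 was the highest of each genotype, and WT replicate 2 the lowest of all. The log2 fold change was -0.08 ± 0.15, with an interval of 0.757-fold to 1.19-fold. The pseudogenes Gm7204 and Gm21399, 97.5% and 98.3% identical to Prdx1, had 61 and 116 reads over the 6 libraries.

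Txn1 (ENSMUSG00000028367, chromosome 4, 57943373 to 57956411, minus strand) encodes cytosolic thioredoxin, which keeps peroxiredoxins and other thiol proteins reduced. It stood at 217, 188 and 247 CPM in WT and at 194, 207 and 254 CPM in BrmKO. As with Prdx1, replicate 3 was the highest in each genotype. The log2 fold change was 0.01 ± 0.13, with an interval of 0.821-fold to 1.23-fold.

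**Figure D2:**
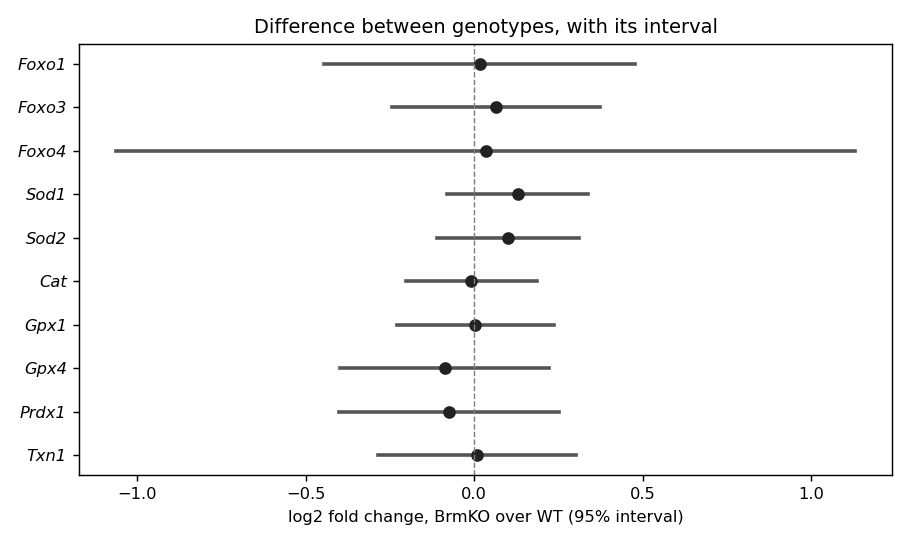
Log2 fold change of BrmKO over WT (x axis) for each of the 10 genes, with points for the edgeR estimates and lines for their 95% intervals. All intervals cross 0; that of Cat runs from -0.20 to 0.19 and that of Foxo4 from -1.06 to 1.13.

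The plot of the intervals shows how large a difference these data could have missed. For Cat, Sod1, Sod2, Gpx1, Gpx4, Prdx1 and Txn1 the 95% interval lay between 0.757-fold and 1.26-fold. For Foxo3 and Foxo1 the upper bounds were 1.3-fold and 1.39-fold, and for Foxo4 no bound inside a doubling could be set. These intervals hold for a single gene and measure the spread between these libraries, which the labels tie to 3 mice per genotype without a mouse number.

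Ordered by level per length, the enzymes stood above the factors. In WT, Gpx1 was followed by Txn1 at 207 ± 27.8, Prdx1 at 183 ± 32.3 and Gpx4 at 136 ± 22.2 RPKM, then Cat at 70.8 ± 1.98, Sod1 at 14.3 ± 0.695 and Sod2 at 8.98 ± 0.519 RPKM (SD, n = 3). Txn1 and Prdx1 lay within each other's spread, although Txn1 was the higher in each of the 6 libraries on merged exons. Prdx1 and Gpx4 were further apart than either SD, and Prdx1 was the higher in each of the 6 libraries. The length used mattered for Sod1. Its annotated exons add up to 3970 bases because of long side transcripts, while its principal transcript has 641 bases. On principal lengths, an alternative added after the data were seen, Sod1 stood at 88.6 RPKM, above Cat, and Gpx4, Prdx1 and Txn1 at 244, 242 and 207 RPKM. Gpx1 then ranked 2 among 12932 genes with a principal transcript.

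Within both genotypes, several of these genes stood apart in replicate 3. Gpx1, Gpx4, Prdx1 and Txn1 were each highest in replicate 3 of WT and in replicate 3 of BrmKO. Against the mean of replicates 1 and 2 of the same genotype, Prdx1 was higher in replicate 3 by 0.38 log2 units in WT and 0.35 in BrmKO, Gpx4 by 0.37 and 0.34, Txn1 by 0.29 and 0.34, and Gpx1 by 0.21 and 0.14. Foxo1 lay on the other side, at -0.58 and -0.25, as did Sod2 at -0.12 and -0.12. Sod1 (0.02 and -0.15), Cat (0.02 and -0.16), Foxo3 (-0.19 and 0.13) and Foxo4 (0.22 and -0.86) had no common direction. Being highest in both replicates 3 was shared by 23.4% of all tested genes, and being lowest in both by 22%, so neither 4 of 10 nor 2 of 10 can be read as particular to these genes. The replicates 3 were singled out after the data were seen, and the difference was given no test.

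**Figure D3:**
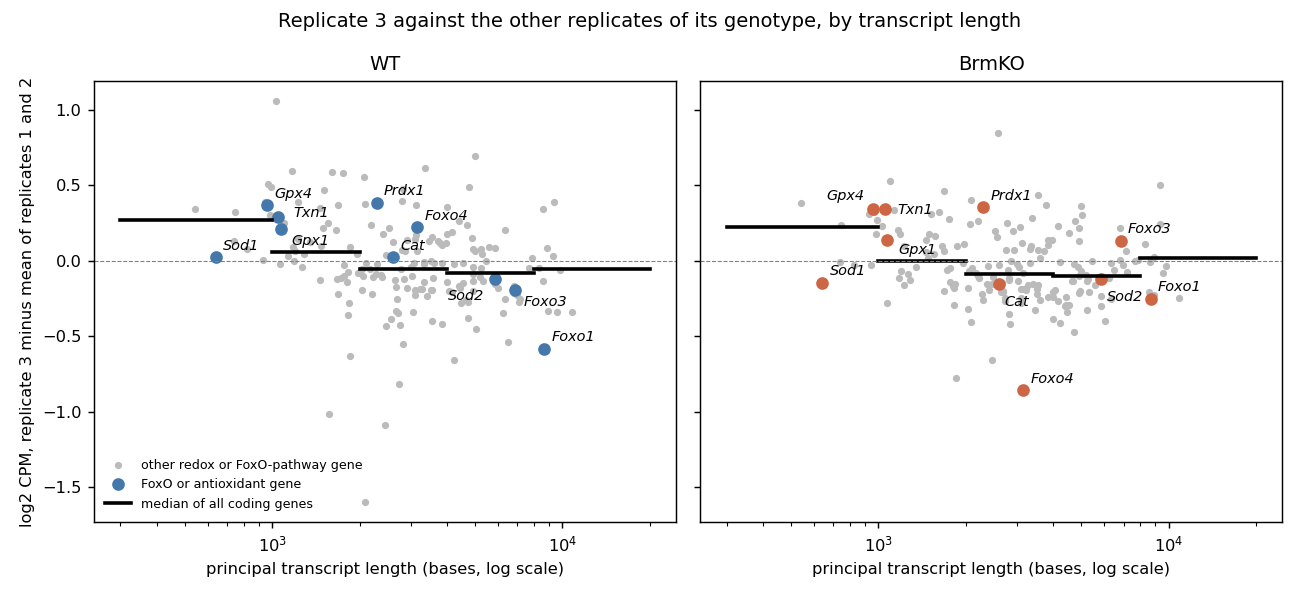
Log2 CPM of replicate 3 minus the mean of replicates 1 and 2 of the same genotype (y axis) against the length of the principal transcript in bases (log x axis), in WT and BrmKO. Coloured points are the 10 genes, grey points other redox and FoxO-pathway genes averaging 10 CPM or more, and black lines medians of all protein-coding genes at that level in 5 length classes. Gpx4, Txn1, Gpx1 and Prdx1 lie above 0 in both panels and Foxo1 and Sod2 below.

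Transcript length moved with this pattern over the whole transcriptome. Among protein-coding genes with a mean of at least 10 CPM, the 478 whose principal transcript has up to 1000 bases had a median difference of 0.27 in WT and 0.22 in BrmKO, and 75.5% of them were above 0 in both. In the 2536 genes of 4000 to 8000 bases the medians were -0.08 and -0.10, and 21.5% were above 0 in both. Gpx4 (959 bases) falls in the first of these classes and Sod2 (5861) in the second. Sod1, with the shortest principal transcript of the 10, is also in the first class and had no gain in replicate 3. Txn1 (1051) and Gpx1 (1072) fall in the class of 1000 to 2000 bases. Its medians were only 0.059 and -0.005, and 40.7% were above 0 in both. Foxo1 (8665) falls in the class over 8000 bases, with medians of -0.056 and 0.016. Prdx1, at 2294 bases, gained in a length class whose medians were -0.06 and -0.09. Blood cell markers went both ways in these libraries. Hba-a1, an alpha globin gene, had 37.0 and 39.1 CPM in the WT and BrmKO replicates 3, beside 11.1 to 18.8 CPM elsewhere, and 6 of 12 erythroid markers and 8 of 13 neutrophil and monocyte markers were highest in both replicates 3. Those 14 were mostly low, and the abundant members did not all follow: Klf1, Car1, Ermap and Mpo were not highest in BrmKO replicate 3. The erythroid sums were 1339, 1413 and 2031 CPM in WT and 1458, 1951 and 1699 in BrmKO, highest in replicate 3 of WT alone. The neutrophil and monocyte sums were 4961, 4427 and 4831 CPM in WT and 4694, 5404 and 4276 in BrmKO, where replicate 3 was the lowest. The part of length, of reads outside genes and of these cells in the pattern was not tested. With both replicates 3 left out, 0 of the 10 genes passed and their smallest adjusted p was 0.593 (edgeR quasi-likelihood test).

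By the naming rule, the genes with the most similar course over the 6 libraries were sought for the gene with the widest range and for the gene with the smallest p. Foxo4 had the widest range, 1.05 log2 units. Rgs7bp, Ubxn11 and Adcy6 followed it most closely, with root mean square differences of 0.12 to 0.13 log2 units over 6 libraries. For Sod1, whose range was 0.26, these were Pcif1, Coro7 and Nln, at 0.02 to 0.03. With 6 points and 15691 genes, such likeness is a description of these libraries.

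The promoters were read for motifs tied to this system. RefSeq promoters (GRCm38.p6) were matched for 9 of the 10 genes, all but Foxo4, with 12 start sites in all, and the 250 bases before each start were searched on both strands. The core of the antioxidant response element, TGACNNNGC (the site of NRF2), occurred in 2 of these 12 promoters, before a start of Prdx1 and of Sod1. It occurred in 10.2% of all 32851 promoters. The FoxO core TGTTTAC occurred in 0 of the 12 promoters of the 9 genes and in 3.17% of all promoters. With 12 promoters and so rare a match, 0 says little about the group. The matches in Prdx1 and Sod1 are shown on the gene's own strand, as the places where the searched letters occur in this group. Capitals mark the match, which in both lies on the opposite strand. They begin 133 bases before the Prdx1 start (chr4:116685456-116685484) and 56 before that of Sod1 (chr16:90220696-90220724).
Prdx1: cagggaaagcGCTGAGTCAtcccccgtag
Sod1: gccaaggtggGCGTGGTCAgactcaggcc
A match describes the letters in these windows and not the binding of a factor.

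The rest of the redox and FoxO network was examined through 9 lists with 220 distinct genes, of which 204 were tested. Over all genes, 0 of the 204 passed (edgeR quasi-likelihood test), 14 had an unadjusted p under 0.05, and DESeq2 called 3, beside 150 (0.956%) of all 15691 genes. The 14 are 6.86% of the 204, beside 5.85% of all genes, and split into 7 higher (3.14% of all genes) and 7 lower (2.71%).

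**Figure D4:**
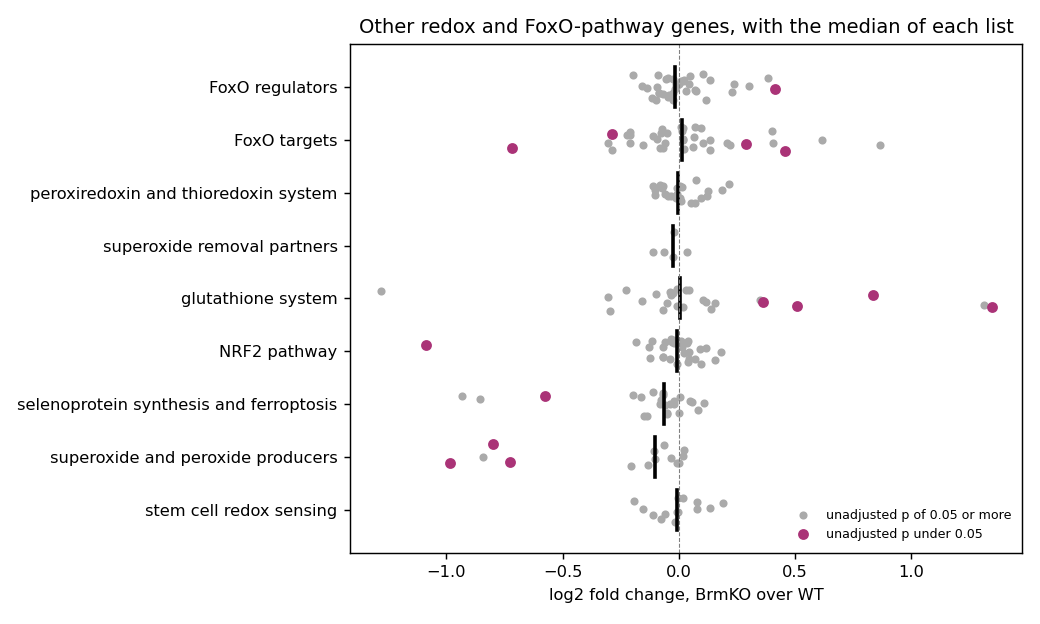
Log2 fold change of BrmKO over WT (x axis) for each tested gene of 9 lists (rows), with purple points for genes at an unadjusted p under 0.05 and black bars for list medians. List medians lie between -0.10 and 0.02, and no gene passed over all genes.

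Genes that act on FoxO factors came to 38 tested. Of these, 16 lay above 0 (median -0.02) and 1 had an unadjusted p under 0.05, higher in BrmKO as were 3.14% of all genes. That gene, Pik3r2, encodes a regulatory subunit of the PI3 kinase that activates AKT. It stood at 80.1, 80.7 and 84.2 CPM in WT and at 109, 118 and 99.3 CPM in BrmKO, without overlap between the groups (5.69% of all genes lay apart with BrmKO higher). Its log2 fold change of 0.41 ± 0.09 had an adjusted p of 0.23 in edgeR and of 0.0115 in DESeq2. Usp7, a deubiquitinase that acts on FoxO4, and Pik3cd, the leukocyte PI3 kinase subunit, followed with log2 fold changes of 0.39 ± 0.18 and -0.20 ± 0.10. The kinase Akt1 had a log2 fold change of 0.05 ± 0.10. Akt1, like the other genes outside the rule here and below, was chosen after its values were seen.

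Known FoxO targets went in both directions. Of 38 tested, 21 lay above 0 (median 0.02), and 4 had an unadjusted p under 0.05. Of these, 2 were higher (3.14% of all genes) and 2 lower (2.71%). Cdkn2c, a CDK inhibitor, stood at 30.7, 30.3 and 22.6 CPM in WT and at 37.9, 41.6 and 35.6 in BrmKO (log2 fold change 0.46 ± 0.14, adjusted p = 0.568, edgeR). Il7r, the lymphoid cytokine receptor that Foxo1 drives, stood at 17.0, 15.9 and 12.5 CPM in WT against 8.39, 8.08 and 11.1 in BrmKO. Its log2 fold change was -0.72 ± 0.19 (adjusted p = 0.432, edgeR). It lay apart with BrmKO lower, as did 5.37% of all genes. In all, 4 targets lay apart with BrmKO higher (5.69% of all genes) and 2 with BrmKO lower (5.37%). The CDK inhibitors of the p21 family did not share a direction, with log2 fold changes of -0.07 ± 0.48 for Cdkn1a, -0.21 ± 0.13 for Cdkn1b and 0.62 ± 0.35 for Cdkn1c, whose groups were apart at a mean of 1.28 CPM in WT and 1.96 in BrmKO. The death genes Bcl2l11 and Bbc3 had -0.21 ± 0.21 and 0.22 ± 0.15, with overlap.

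The other peroxiredoxins, like Prdx1, overlapped between the genotypes. Prdx6 had the most reads of them, at means of 594 and 553 CPM (log2 fold change -0.10 ± 0.08). Prdx2, the form best known from red cells, had 321 ± 80.8 and 322 ± 43.4 CPM (SD, n = 3). Prdx3, Prdx4 and Prdx5 had log2 fold changes of -0.07 ± 0.09, 0.05 ± 0.15 and -0.05 ± 0.09. Of 24 genes in the peroxiredoxin and thioredoxin list, 12 lay above 0 (median -0.003) and 0 had an unadjusted p under 0.05. The smallest p belonged to Txnrd2, the mitochondrial thioredoxin reductase, at 45.0, 44.4 and 46.8 CPM in WT and at 50.7, 52.6 and 51.5 in BrmKO (0.18 ± 0.09, adjusted p = 0.874, edgeR). Its groups were apart but the difference was small. By replicate the family was mixed. Prdx2 and Prdx4 were highest in replicate 3 of both genotypes, by 0.59 and 0.49 log2 units in WT and 0.32 and 0.27 in BrmKO. Prdx6 was lowest in both replicates 3 (-0.11 and -0.04), and Prdx3 and Prdx5 were neither. Of the 204 tested genes of the lists, 17.6% were highest and 31.9% lowest in both replicates 3, beside 23.4% and 22% of all genes.

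Of 26 glutathione genes, 13 lay above 0 (median 0.004), and 4 had an unadjusted p under 0.05, all higher in BrmKO. Of all tested genes, 3.14% were higher in BrmKO by that measure. Gstm1, a glutathione transferase, stood at 137, 122 and 133 CPM in WT and at 167, 180 and 158 in BrmKO. Its log2 fold change was 0.36 ± 0.09, with an adjusted p of 0.327 in edgeR and 0.0311 in DESeq2. Gsta4, a transferase for lipid peroxidation products, and Gpx7, a peroxidase of the endoplasmic reticulum, were low, at 3.31 ± 0.295 and 3.58 ± 0.229 CPM in WT and 5.90 ± 1.17 and 5.09 ± 0.371 in BrmKO (SD, n = 3). The enzymes that make and reduce glutathione overlapped. Gclc, Gclm, Gss and Gsr had log2 fold changes of -0.07 ± 0.10, 0.04 ± 0.10, 0.02 ± 0.10 and 0.12 ± 0.11.

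Of 30 genes of the NRF2 pathway, 14 lay above 0 (median -0.01). Nfe2l2, which encodes NRF2, had means of 136 ± 3.58 and 135 ± 9.11 CPM in WT and BrmKO, and Keap1, its inhibitor, 96.7 ± 3.61 and 101 ± 10.3 (SD, n = 3). Hmox1, the haem oxygenase of macrophages and stressed cells, was the gene with an unadjusted p under 0.05. It was lower in BrmKO, as were 2.71% of all genes by that measure. It stood at 26.3, 12.4 and 8.93 CPM in WT and between 6.13 and 8.32 CPM in the 3 BrmKO libraries (log2 fold change -1.09 ± 0.36, adjusted p = 0.644, edgeR). The groups lay apart with BrmKO lower, as did 5.37% of all genes. Its WT mean was raised most by replicate 1, the library where the stromal and endothelial markers were also highest (458 CPM summed over 13 genes, against 205 to 314 in the other 5). Pecam1 supplied 140 to 165 CPM of each sum. Of those 13 genes, 10 had a log2 fold change below 0 and 3 above (median -1.18), and 7 lay apart with BrmKO lower. The part of such cells in the Hmox1 level was not tested.

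Genes for selenoprotein synthesis, on which Gpx4 depends, were listed together with genes of ferroptosis, which it holds back. The listed genes lay mostly a little below 0, 19 of 24 with a median of -0.06. Over all genes, 48.8% lay above 0. Only Alox5, a leukocyte lipoxygenase, had an unadjusted p under 0.05, lower in BrmKO as were 2.71% of all genes by that measure. Its means were 14.3 ± 2.96 CPM in WT and 9.59 ± 1.83 CPM in BrmKO (SD, n = 3). The log2 fold change was -0.58 ± 0.21 (adjusted p = 0.746, edgeR). Tfrc, the transferrin receptor, and Gch1, the first enzyme of tetrahydrobiopterin synthesis, had log2 fold changes of -0.16 ± 0.09 and -0.20 ± 0.11. Sephs2 and Secisbp2, which serve selenocysteine insertion, had -0.11 ± 0.08 and -0.04 ± 0.10.

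On the producing side, 11 of 14 tested genes lay below 0 (median -0.10), and 3 had an unadjusted p under 0.05, all lower in BrmKO. Of all tested genes, 48.8% lay above 0, and 2.71% were lower in BrmKO at an unadjusted p under 0.05. Cybb, the catalytic subunit of the phagocyte NADPH oxidase, stood at 10.5, 8.80 and 10.9 CPM in WT and at 5.08, 5.71 and 7.42 in BrmKO. Its log2 fold change was -0.73 ± 0.21 (adjusted p = 0.505, edgeR). Hvcn1, the proton channel that supports that oxidase, stood at 8.51, 8.80 and 6.65 CPM in WT and at 5.05, 4.18 and 2.91 in BrmKO (-0.98 ± 0.26, adjusted p = 0.379 in edgeR and 0.0438 in DESeq2). Both were apart between the groups with BrmKO lower, as were 5.37% of all genes. Xdh, xanthine dehydrogenase, overlapped (-0.80 ± 0.35). The oxidase's more abundant subunits Cyba and Ncf1 overlapped too, at log2 fold changes of -0.03 ± 0.12 and -0.21 ± 0.13. Cybb and Hvcn1 are also expressed by mature myeloid cells and B cells. The 10 B lineage markers summed to 700 to 1373 CPM (WT) and 623 to 701 CPM (BrmKO). Ighm supplied most of each sum, at 556 to 1291 CPM over the 6 libraries. The 8 B lineage markers that were tested all lay below 0 (median -0.51), and 2 lay apart with BrmKO lower. The 13 neutrophil and monocyte markers summed to 4427 to 4961 CPM in WT and 4276 to 5404 CPM in BrmKO, with overlap. Mpo supplied most of each sum, at 3284 to 4463 CPM. Of the 12 neutrophil and monocyte markers that were tested, 9 lay below 0 and 3 above (median -0.28). Among these 12, 1 lay apart between the groups with BrmKO lower, as did 5.37% of all genes. That was the monocyte gene Ccr2, at 26.6 to 34.5 CPM in WT and 17.2 to 23.1 CPM in BrmKO. Whether those cells carried the differences was not tested.

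Among 14 genes by which stem cells sense or limit oxidants, 5 lay above 0 (median -0.01) and 0 had an unadjusted p under 0.05. Hif1a had the smallest p, with a log2 fold change of -0.19 ± 0.11, followed by Tsc1 at 0.19 ± 0.11 and Polg at 0.14 ± 0.08. Atm, the kinase whose loss raises oxidants in stem cells, had means of 41.9 ± 1.24 and 37.7 ± 3.59 CPM, and Mapk14, which encodes p38 alpha, 387 ± 30.8 and 386 ± 24.8 (SD, n = 3).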

How the data were processed

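Per the labels' protocols, LSK cells were sorted from lineage-depleted marrow and polyadenylated RNA was amplified with a SMART-Seq v4 kit, which carries no molecular identifiers. What the authors deposited is 1 raw count per gene and library. The submitters' processing notes name STAR, HTSeq, DESeq2 and GRCm38, without versions or a strand setting. The 5 rows that name no gene, among them reads outside genes, were left out (5.79% to 9.29% of reads were outside genes).

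BrmKO was compared with WT in edgeR 4.0.16 (quasi-likelihood, TMM, filterByExpr, R 4.3.3), fitted to all genes, with no covariate. Intervals are 95% and log2 CPM used a prior count of 2. Positions and lengths came from GENCODE M21. Pseudogene copies were sought with minimap2 2.31 (95% identity over 50% of the shorter transcript). The method was checked on simulated data. Alternatives were DESeq2 1.42.0, limma-voom 3.58.1, RLE factors, no filter, a replicate block, left-out libraries and added copy reads.

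Named were the 10 genes, Smarca2 and, per list, up to 3 genes with the smallest p at a mean of at least 1 CPM. Members and lists were chosen with earlier results of these data known. A gene that the rule names is not reported here.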

Additional observations from a re-analysis of the deposited data

How the results depend on the processing

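Under 13 alternatives, 0 of the 10 genes passed, and their lowest adjusted p was 0.593. Of 130 values, 112 kept their direction and 18 changed sign, each within 0.247 of 0. Foxo4 was -0.044 with limma-voom, and without both libraries numbered 3 Foxo1 was -0.068, Foxo3 -0.042, Cat 0.05 and Txn1 -0.012. Leaving out 1 library at a time gave -0.15 to 0.16 for Foxo1, 0 to 0.18 for Foxo3, -0.25 to 0.29 for Foxo4, 0.094 to 0.176 for Sod1, 0.03 to 0.144 for Sod2, -0.065 to 0.041 for Cat, -0.075 to 0.075 for Gpx1, -0.21 to 0.044 for Gpx4, -0.203 to 0.062 for Prdx1 and -0.115 to 0.11 for Txn1. Over all genes 22 passed, against 150 with DESeq2, 58 with no low-count filter and 6 to 36 with 1 library left out (WT replicate 1: 7, WT 2: 6, WT 3: 36, BrmKO 1: 9). Pathway genes past the threshold numbered 0, except 3 with DESeq2 (Pik3r2, Gstm1 and Hvcn1). The causes were not tested. Depth limited Foxo4 most, with 15 to 29 reads per library.

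Same-numbered libraries were not taken as pairs, since their deviations from the group means correlated at 0.052, 0.008 and 0.194, not all above 0.1. With the replicate block 25 genes passed, 0 of the 10 among them, and Foxo4 was -0.016. WT replicates 1 and 3 correlated best with their own number and WT replicate 2 with BrmKO replicate 1 (0.168).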
